A study of Mus musculus with 13 samples.

Results

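The 8 genes examined here make prostaglandins, sense them or break them down: Pla2g4a, Ptgs2, Ptgs1, Ptges, Hpgds, Ptger2, Ptger4 and Hpgd. Acetylation of histone H3 at lysine 27 (H3K27ac) was measured at their loci by chromatin immunoprecipitation and sequencing (ChIP-seq) in mouse bone marrow-derived macrophages. A region of the deposited consensus set was assigned to a gene if it overlapped the gene body, or if that gene was the nearest protein-coding gene within 100 kb. This gave 49 of the 40691 regions (mm10), 24 overlapping their gene and 25 outside it. The genes had 11 regions (Pla2g4a), 10 (Ptgs2), 9 (Ptger4), 5 (Ptgs1), 5 (Ptger2), 4 (Hpgd), 4 (Hpgds) and 1 (Ptges), from 602 to 70802 bp wide with a median of 4993 bp. One of them, at the 3′ end of Hpgds, was shared with Smarcad1. The regions of each gene are numbered below from low to high coordinate, so Ptgs2-5 is the fifth region of Ptgs2.

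All cells had the genotype IL10-/-RAG2-/- on the 129S6/SvEvTac strain, so the IL-10 gene and the recombinase gene Rag2 were knocked out in every group, controls included. Marrow precursors were cultured for 5 days in medium conditioned with the growth factor M-CSF, and 3 independent pools of macrophages were used. The 4 groups had 3 libraries each. Late IL-10 cells received LPS for 195 min and, over the final 30 min of it, IL-10, continuous IL-10 cells received both for 195 min, LPS cells received LPS alone for 195 min, and untreated cells neither. LPS, a bacterial cell wall component sensed by Toll-like receptor 4, was used at 1 ng/mL, and continuous IL-10 at 1 ng/mL. The concentration in the late schedule was not stated separately, and the age and number of the mice were not stated.

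H3K27ac marks active promoters and enhancers, and LPS and IL-10 are opposing signals in macrophages: LPS starts the inflammatory program and IL-10 restrains it. In the prostaglandin pathway a phospholipase frees arachidonic acid from membranes, a cyclooxygenase turns it into prostaglandin H2, and a terminal synthase converts that into prostaglandin E2 or D2. Prostaglandin E2 acts on macrophages through receptors that raise cyclic AMP, and a dehydrogenase inactivates it.

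The promoters of Ptgs2, Ptges and Ptgs1 are shown because the regions over them had the largest fitted changes with LPS among the regions over a member's start, on the log2(signal + 1) scale, with opposite signs in the cyclooxygenase pair. Each covers 250 bases before to 50 after the annotated start, from RefSeq on GRCm38.p6 (mm10), on the strand of the gene: chr1:150099781-150100080 on the plus strand for Ptgs2, chr2:30903248-30903547 on the minus strand for Ptges and chr2:36230176-36230475 on the plus strand for Ptgs1. Capitals mark matches to an NF-kB-like motif (GGG and CC around any 5 bases) or to the cyclic AMP response element core TGACGT, on either strand.
Ptgs2: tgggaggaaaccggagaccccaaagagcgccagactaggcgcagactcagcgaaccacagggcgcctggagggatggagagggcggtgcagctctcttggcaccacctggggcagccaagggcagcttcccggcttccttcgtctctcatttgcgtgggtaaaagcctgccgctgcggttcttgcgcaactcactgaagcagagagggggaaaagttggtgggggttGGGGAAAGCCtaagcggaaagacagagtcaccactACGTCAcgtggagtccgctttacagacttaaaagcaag
Ptges: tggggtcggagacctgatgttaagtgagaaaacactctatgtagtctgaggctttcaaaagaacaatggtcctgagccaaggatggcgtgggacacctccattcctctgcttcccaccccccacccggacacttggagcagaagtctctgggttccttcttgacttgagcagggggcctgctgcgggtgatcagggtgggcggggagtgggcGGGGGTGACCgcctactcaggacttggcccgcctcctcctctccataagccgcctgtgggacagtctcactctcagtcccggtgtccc
Ptgs1: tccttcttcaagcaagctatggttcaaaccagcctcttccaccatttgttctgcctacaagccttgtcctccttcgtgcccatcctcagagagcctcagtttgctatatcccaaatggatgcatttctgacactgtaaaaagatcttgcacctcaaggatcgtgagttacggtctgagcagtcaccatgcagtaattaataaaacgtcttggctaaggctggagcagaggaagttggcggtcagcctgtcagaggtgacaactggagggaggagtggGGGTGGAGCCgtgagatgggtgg

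With positions counted from the start base and negative before it, Ptgs2 had an NF-kB match at -23 and a reverse-strand cyclic AMP element core at 12, which overlapped an E-box (CANNTG) at 16, and further E-boxes at -147 and -103. Ptges had an NF-kB match at -38 and an E-box at -121. Ptgs1 also had an NF-kB match, at 27, and E-boxes at -208, -139 and 8. The NF-kB pattern was present in 50.8% of the 32851 promoters in the RefSeq table and the E-box in 72.3%, whereas the cyclic AMP element core was present in 7.5%. Among the other members the NF-kB pattern was found at Ptger4 alone, in 3 matches at -189, -188 and -104, of which the first 2 overlapped. TATAAA (13.6% of all promoters) was found at 4 in Hpgd and, reversed, at -200 in the promoter of the internal start of Pla2g4a, and neither a STAT-like motif (TTC and GAA around any 3 bases, 8.3%) nor TGANTCA (AP-1-like, 7.8%) was found in any of the 9 member promoters. These are matches of letters only. The promoters held 16 CpG dinucleotides at Ptgs2, 10 at Ptges and 6 at Ptgs1, against a median of 7 over all promoters.

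The deposited values are normalised signals in which 1 read was worth the same in every region of a library. They converted back to 5149730 to 26922552 whole reads per library, with a median of 18 to 89 reads per region. Between 19.74% and 29.93% of regions in each library stood at 1 read, the lowest value in the files, so a region at that value is not shown to be free of H3K27ac. Where a group stood there in all libraries, folds are given as bounds against 3 reads per region and library, which describe the deposited values only and cover counting error alone. All 10 of 10 macrophage markers had regions, with summed signals of 41320 to 54440 (late IL-10), 47660 to 57740 (continuous IL-10), 47280 to 72110 (LPS) and 44140 to 58500 (untreated). These sums were larger than those of any other marker list, the highest of which was 17850 (fibroblast and stroma). A region that Pdgfrb of that list shares with the macrophage marker Csf1r entered both sums. Replicate 3, which had the most reads in each group, was the lowest library of its group at 7 of the 8 genes in late IL-10, 6 in continuous IL-10 and 7 in LPS, against 31.0%, 23.6% and 26.9% of all genes tested, and at 3 of 8 in untreated cells (14.4%). Its part in the results was not tested, and results that change without it are given below. A bulk signal cannot tell fewer acetylated cells from less acetylation per cell.

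LPS raised H3K27ac at 4 of the 8 genes (Ptgs2, Ptges, Pla2g4a and Ptger4) and lowered it at Ptgs1 and Hpgds, in a limma test on the log2(signal + 1) summed per gene, with a Benjamini-Hochberg adjusted p under 0.05. Of the 13482 genes tested, 14.2% were higher and 13.3% lower in LPS than in untreated cells. The median log2 change was 0.51 over the 8 genes and -0.11 over all genes tested. Of the 49 regions, 44 passed the filter on low signal and were tested. LPS raised 12 and lowered 11 of them (27.3% and 25.0%), against 16.5% and 17.9% of all 36621 regions tested. The 12 became 23 without LPS replicate 3, 22 without replicate 3 of every group and 20 with a term for the replicate number in the fit (a replicate block). Over the series the share of regions higher with LPS also grew in these settings, to 22.2%, 22.8% and 24.1%. Of the 12 raised regions 5 overlapped their gene and 7 lay outside, and of the 11 lowered 6 overlapped and 5 lay outside. The median log2 change was 1.02 over the 44 regions, or 0.80 with the 21 that have a group at the floor set to their bounds, and -0.06 over all regions.

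Between the groups given LPS, gene calls depended on the fit and lay at Hpgds, Ptgs1 and Pla2g4a. Without the pairing of the libraries, continuous IL-10 against LPS gave no called change in any of the 8 genes (2.59% of all genes were higher and 3.17% lower), and no member had an unadjusted p under 0.05 except Ptgs1. Late IL-10 against LPS gave 1 call, Hpgds, higher (3.19% of all genes higher, 0.260% lower), and late against continuous IL-10 gave none (1.88% higher, 0.668% lower), with unadjusted p under 0.05 at Ptgs1 and Hpgds. In both comparisons without a call DESeq2 called 1 gene, Ptgs1, and edgeR none. With the replicate block, which pairs libraries by replicate number, Ptgs1 was higher with continuous IL-10 than with LPS (limma adjusted p = 0.00351), and Hpgds (5.00e-04) and Pla2g4a (0.00395) were higher with late IL-10 than with LPS. Against continuous IL-10, late IL-10 had Ptgs1 lower (adjusted p = 7.26e-04) and Hpgds higher (0.0128) in that fit. The block also raised the shares over all genes, to 7.34% higher and 10.3% lower for continuous IL-10 against LPS, 6.72% and 3.01% for late IL-10 against LPS, and 9.69% and 7.17% for late against continuous IL-10. With each library centred on its median, the genes called over the series were 361 higher and 226 lower for continuous IL-10 against LPS (349 and 427 as deposited), and 96 higher and 80 lower for late against continuous IL-10 (254 and 90 as deposited). The median log2 changes over the 8 genes in these comparisons were 0.36, 0.23 and 0.14, against 0.03, -0.16 and -0.12 over all genes. Of the 44 regions, continuous IL-10 against LPS had 2 higher and 0 lower (3.28% and 3.24% of all regions), late IL-10 against LPS 1 higher and 0 lower (3.14% and 0.396%), and late against continuous IL-10 0 higher and 1 lower (1.86% and 0.852%). With the replicate block these became 5 and 0, 5 and 0, and 2 and 1, beside 7.42% and 8.98%, 6.17% and 1.92%, and 8.02% and 4.96% of all regions. The comparisons with LPS share the LPS libraries, so their values are not independent of each other.

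Markers of other cell types had regions as well: 6 of 6 for dendritic cells, 5 of 8 for neutrophils, 5 of 7 for T cells, 3 of 5 for B cells and 3 of 6 for megakaryocytes and platelets. The dendritic cell markers summed to 4513 to 10930 with late IL-10, 3382 to 6333 with continuous IL-10, 4742 to 12950 with LPS and 6048 to 8078 untreated. The neutrophil markers summed to 2683 to 2958, 2954 to 3372, 1836 to 2141 and 2292 to 3246 in those groups, and every LPS library was below all others. Hpgds was also lowest on average with LPS. The T cell sums were 915.8 to 1192, 396.2 to 578.5, 667 to 852.8 and 442.5 to 622.8, and the B cell sums 2016 to 3067, 1806 to 2561, 1552 to 2046 and 2509 to 3246. The megakaryocyte and platelet sums were 1050 to 3732, 702.7 to 1002, 1545 to 6747 and 711.8 to 1887. Nearly all of these came from 1 region shared by Pf4, Ppbp and the chemokine gene Cxcl3, which was counted for both markers. With LPS 2 of the 6 dendritic cell markers tested rose and 2 fell, of the 4 neutrophil markers tested 1 rose and 2 fell, and 3 of the 5 T cell markers tested rose. Named after their values were seen, Ccr7 (log2 change 7.22, limma adjusted p = 1.56e-05) and Camp (7.58, adjusted p = 3.20e-04) rose with LPS. Among the other dendritic cell markers Flt3 (-7.27, adjusted p = 3.17e-04) and Siglech (-3.16, adjusted p = 0.0275) fell with LPS, and Zbtb46 (1.32, adjusted p = 0.0085) rose. Elane fell with LPS (-6.55, adjusted p = 7.27e-04) and was higher than LPS with late (5.02, adjusted p = 0.0201) and continuous IL-10 (4.91, adjusted p = 0.0198). Its LPS values were 1.968, 1.68 and 75.12, with replicates 1 and 2 at 1 read. Camp had 0.707, 1.261 and 112.2 untreated, and Flt3 5.903, 5.041 and 10.2 with LPS. With values this near the floor, the changes of these genes cannot be sized. The only region of Elane is shared with Plppr3, Prtn3 and Cfd, and that of Camp with Nme6, so neither signal belongs to the marker gene alone. The part of these other cell types in the results was not tested.

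**Figure D1:**
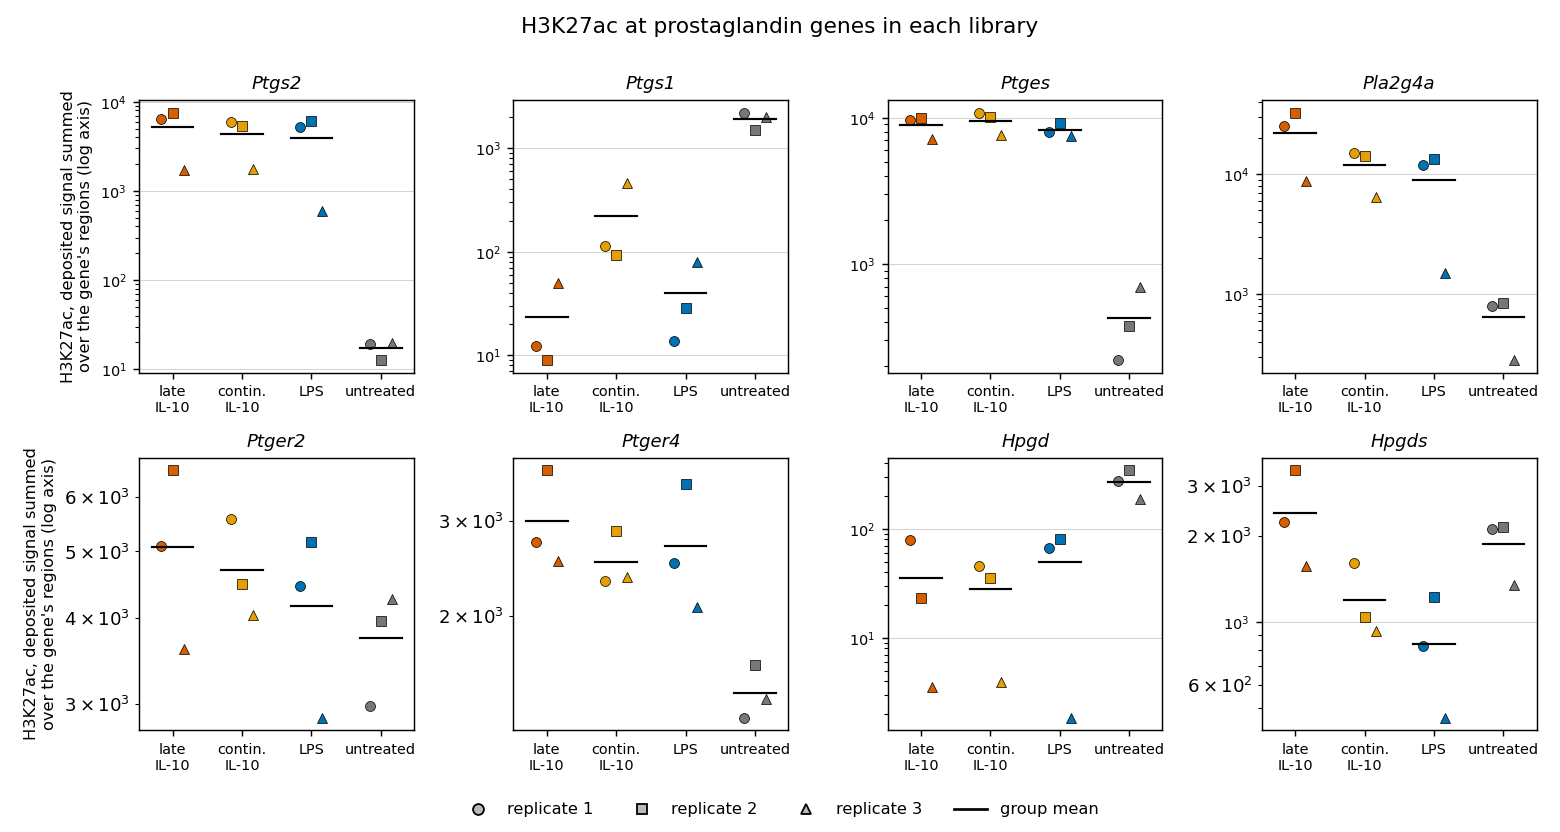
H3K27ac summed over the regions of each gene (deposited signal, log axis) in each of the 12 libraries, with the 3 replicates as symbols and the group mean as a line. Ptgs2, Ptges and Pla2g4a lie far above untreated in all 3 groups given LPS, Ptgs1 and Hpgd lie far below it, and replicate 3 is often the lowest of its group.

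**Figure D2:**
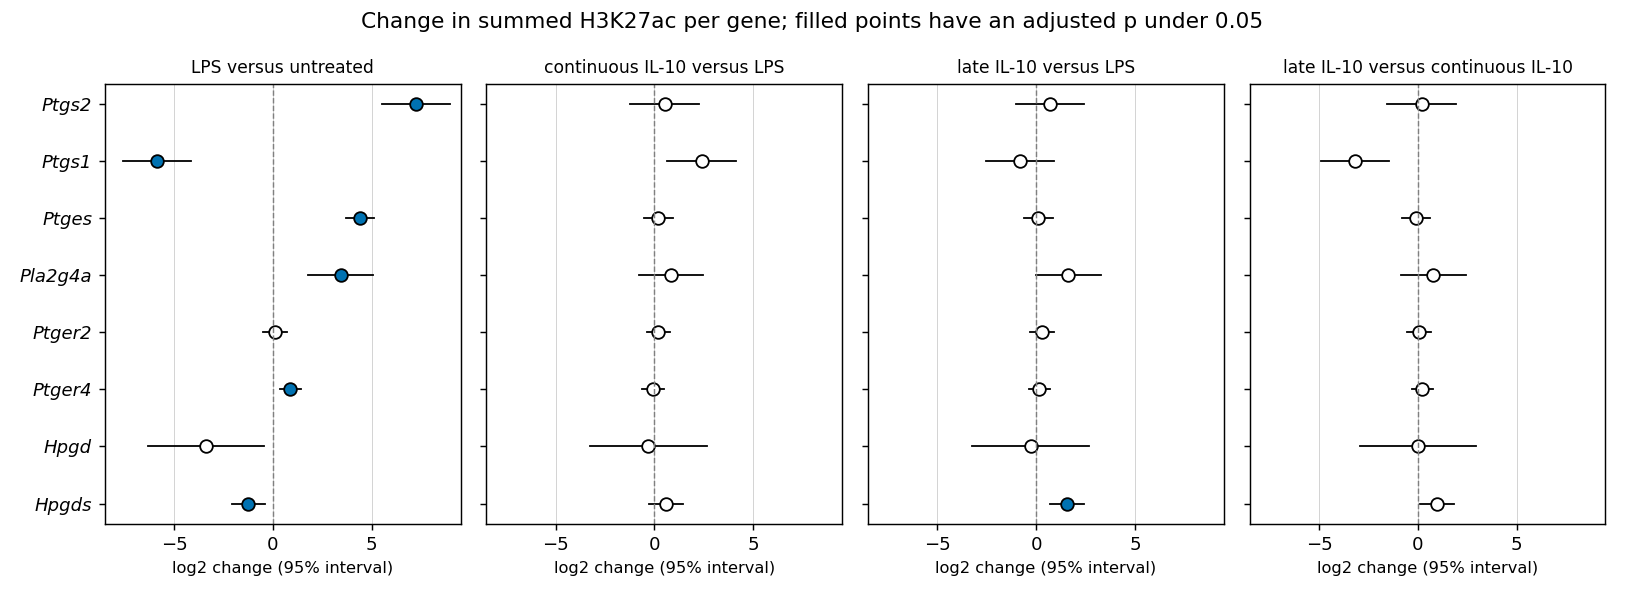
Log2 change of the summed H3K27ac of each gene in the 4 comparisons, with 95% confidence intervals from limma and filled points for an adjusted p under 0.05. Calls fill the panel of LPS versus untreated, where Ptgs2 is at 7.23 and Ptgs1 at -5.85, and 1 point, Hpgds at 1.57, is filled in the IL-10 panels.

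Pla2g4a, the cytosolic phospholipase A2 that releases arachidonic acid, gained H3K27ac with LPS. Its summed signal was 11950, 13340 and 1483 in LPS macrophages, against 786.8, 844.6 and 280.5 in untreated macrophages. The groups did not overlap, but LPS replicate 3 lay close to the untreated range while replicates 1 and 2 were far above it. The log2 change was 3.43 (SE 0.76, limma adjusted p = 0.00462). It was 4.46 without LPS replicate 3 and 3.95 without replicate 3 of every group, and with the other libraries left out singly it was 2.88 to 3.72. The call held under all 15 alternatives, with adjusted p-values up to 0.0271.

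The signal of Pla2g4a lay mainly in a pair of broad regions, one over the 3′ part of the gene (Pla2g4a-1, chr1:149827573-149898374, 70802 bp) and one over the start of the longer transcript (Pla2g4a-7, chr1:149934001-149969918, 35918 bp). Pla2g4a-7 had 3847, 5374 and 1003 in LPS, against 390.9, 460.1 and 276.3 in untreated cells. Every LPS library was above every untreated one, with a log2 change of 2.90 (SE 0.55, adjusted p = 0.00139). Pla2g4a-1 had 7270, 7337 and 465.6 in LPS, against 389.5, 373.1 and 0.419 in untreated cells, the last of which is 1 read. Its log2 change of 5.62 (SE 1.73, adjusted p = 0.0227) was lost when LPS replicate 1 (adjusted p = 0.0888), LPS replicate 2 (0.0841) or untreated replicate 3 (log2 change 2.93, adjusted p = 0.0545) was left out.

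The region over the internal start of Pla2g4a and one upstream of the gene were at 1 read in every untreated library. The upstream one, Pla2g4a-11 (chr1:150011792-150018313, 50502 bp from the gene), had 552.9, 467.2 and 9.738 in LPS, at least 144-fold higher than untreated (limma adjusted p = 0.00289). Pla2g4a-5, over the internal start, had 145.6, 78.98 and 0.464 in LPS, at least 31.4-fold higher on the means but with replicate 3 at 1 read, so that the groups overlapped. Its call (adjusted p = 0.0369) was lost without any of untreated replicates 1, 2 and 3 (adjusted p = 0.0818, 0.0636 and 0.0871) and without LPS replicate 1 (0.176) or 2 (0.147).

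Pla2g4a was higher on average with IL-10 than with LPS alone, with ranges that overlapped. With late IL-10 the summed signal was 25050, 32560 and 8710, and in the continuous group it was 15020, 14030 and 6409. In each of the 4 groups replicate 3 was the lowest. The log2 change of late IL-10 against LPS was 1.64 (95% interval -0.01 to 3.28, limma adjusted p = 0.411). Each late IL-10 library was above the LPS library of the same number, and with the replicate block the change was called (adjusted p = 0.00395), as it was without replicate 3 of every group (log2 change 1.18, adjusted p = 0.00396). For continuous IL-10 against LPS it was 0.84 (-0.80 to 2.48, adjusted p = 0.688, and 0.0826 with the block). Late against continuous IL-10 gave 0.80 (-0.84 to 2.44, adjusted p = 0.661), and 0.98 without replicate 3 of every group (adjusted p = 0.0068). Pla2g4a-7 had 10620, 15230 and 5065 with late and 8574, 8668 and 4428 with continuous IL-10. Against LPS it was not called (limma adjusted p = 0.123 and 0.198). It was called higher with the block (8.31e-04 and 0.0041) and without replicate 3 of every group (0.0183 and 0.0437). In that last setting Pla2g4a-11 was lower with continuous IL-10 (log2 change -1.46, adjusted p = 0.039).

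Ptgs2, the inducible cyclooxygenase (COX-2), had the largest gain of the 8 genes. Its summed signal was 5269, 6058 and 601.5 in LPS macrophages, against 19.09, 12.61 and 19.68 in untreated macrophages, where 9 of its 10 regions were at 1 read in all 3 libraries. The lowest LPS library was far above the highest untreated one. The log2 change was 7.23 (SE 0.80, limma adjusted p = 4.09e-05) and held under all 15 alternatives (range 6.64 to 8.42). Without LPS replicate 3 it was 8.31.

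Of the 9 Ptgs2 regions tested, 4 rose with LPS: the one over the start and 3 broad ones downstream. The start region, Ptgs2-5 (chr1:150095219-150106183), which holds the promoter printed above, had 891.3, 1207 and 211.9 in LPS, against 0.707, 1.26 and 0.419 in untreated cells, at least 323-fold higher (adjusted p = 5.78e-06). Ptgs2-10 (chr1:150194605-150212793, centred 103668 bp after the start) had 2371, 2855 and 122.4 in LPS against the same 1-read values in untreated cells, at least 747-fold higher (adjusted p = 5.17e-05). This distal region held 44.8% of the mean LPS signal of the gene, whereas the start region held 19.4%. Between them Ptgs2-7 (690.6, 610.0 and 88.11 in LPS) was at least 194-fold higher than untreated (adjusted p = 1.88e-05). Ptgs2-8 (1047, 1230 and 175.3 in LPS, against 12.73, 1.26 and 15.91 in untreated cells) had a log2 change of 6.24 (SE 0.84, adjusted p = 1.22e-04). The other 6 regions were small, with mean LPS signals of 7.64 to 79.1.

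Neither IL-10 schedule gave a called change at Ptgs2. The summed signal was 6410, 7561 and 1738 with late IL-10 and 5910, 5338 and 1766 in the continuous group, and both ranges overlapped that of LPS. The log2 change was 0.71 for late IL-10 (95% interval -1.02 to 2.44, adjusted p = 0.904) and 0.51 for continuous IL-10 (-1.22 to 2.24, adjusted p = 0.862). Both intervals include a decrease of 1 log2 unit and an increase of 2. At the start region the values were 824.2, 1174 and 285.2 with late IL-10 and 858.2, 782.5 and 274.0 with continuous IL-10. No Ptgs2 region was called in any comparison with IL-10.

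Pla2g4a and Ptgs2 are neighbours on chromosome 1, with 138740 bp between the genes, and 21 regions belong to the pair. In untreated cells 9 of the 11 Pla2g4a regions and 9 of the 10 Ptgs2 regions were at 1 read in all 3 libraries, whereas over the series 14.3% of regions were. In the late IL-10, continuous IL-10 and LPS groups none of these 21 regions was at 1 read in all 3 libraries. Over the series 11.4%, 11.7% and 10.8% of regions were. A region at 1 read in every untreated library most likely entered the consensus set through signal in the groups given LPS. The comparison in those groups was therefore largely set by the choice of regions and is not read as a result.

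**Figure D3:**
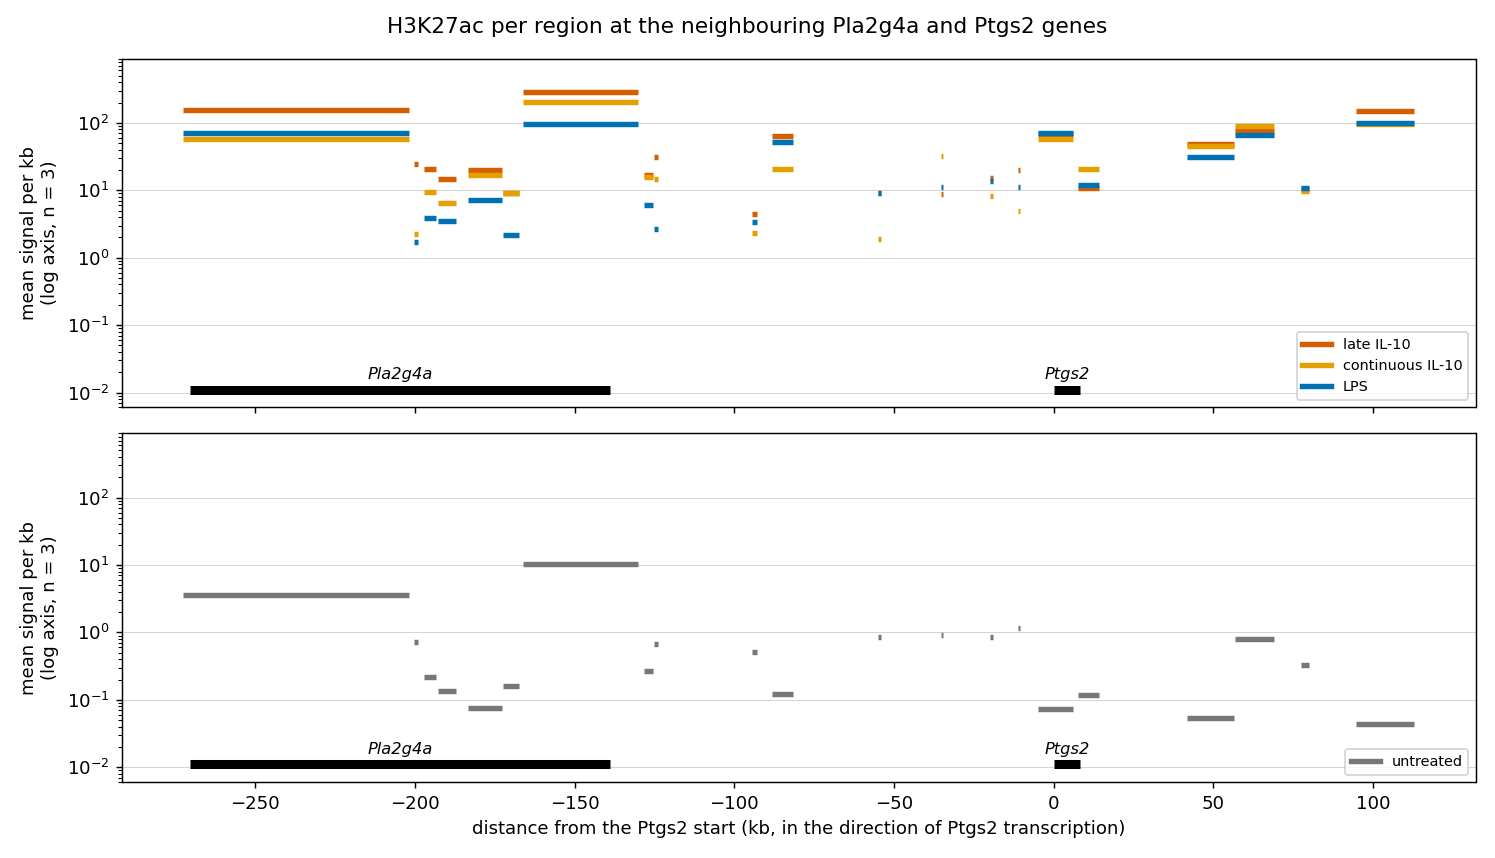
Mean H3K27ac per kb (deposited signal, n = 3, log axis) of each region at the neighbouring Pla2g4a and Ptgs2 genes, drawn to scale against the distance from the Ptgs2 start in kb, for the groups given LPS (upper panel) and untreated cells (lower panel). The broad Pla2g4a regions, the Ptgs2 start and the 3 downstream Ptgs2 regions carry the signal in the upper panel, while the untreated panel lies mostly at the level of 1 read.

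The genes whose summed signal followed that of Ptgs2 most closely over the 12 libraries, by Pearson correlation of log2 values, were Gk (r = 0.994), Dcn (0.993), Borcs5 (0.992), Snf8 (0.991) and Gip (0.991). Snf8 and Gip share a region. Each of these libraries shares its depth and scaling between genes, so these values are a description. Dcn, a gene of the fibroblast marker list, had 11860, 12920 and 2666 with late IL-10, 11920, 8022 and 2175 with continuous IL-10, 8514, 8288 and 388.6 with LPS, and 8.483, 12.61 and 4.187 untreated, with 9 of its 10 regions outside the gene. The whole list, 5 of 7 markers with a region, summed to 7108 to 16520, 8501 to 17850, 6096 to 13820 and 7253 to 9771 in those 4 groups. In untreated cells nearly all of this sum was at Pdgfrb (7235, 7366 and 9763). The main Pdgfrb region is shared with the macrophage marker Csf1r, so the untreated sum is not a signal of stroma alone. Of the other genes of the list, Col3a1 and Pdgfra had no region. In the same order of groups Lum had means of 57.3, 40.8, 52.6 and 1.59, and Col1a2 16.8, 24.3, 18.7 and 4.17. Neither was called with LPS (limma adjusted p = 0.084 and 0.161). Col1a1 had means of 36.4, 1.31, 1.37 and 0.795. The part of stroma in the Ptgs2 result was not tested.

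Ptgs1, the constitutive cyclooxygenase (COX-1), moved the other way. Its summed signal was 13.77, 28.57 and 78.83 in LPS macrophages, against 2211, 1490 and 2012 in untreated macrophages. Every LPS library lay far below every untreated one. The log2 change was -5.85 (SE 0.80, limma adjusted p = 1.82e-04) and was called under all 15 alternatives, from -6.49 without LPS replicate 3 to -2.97 with every region within 100 kb counted. All 5 Ptgs1 regions fell. The regions of Ptgs2 give no contrast in this count, because 9 of the 10 stood at 1 read in all 3 untreated libraries and could not fall.

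The region over the Ptgs1 start, Ptgs1-2 (chr2:36228571-36241624), was at 1 read in each LPS library, against 743.0, 388.3 and 738.1 in untreated cells, at least 152-fold lower (adjusted p = 2.69e-04). Ptgs1-3 was at least 89.6-fold lower (adjusted p = 1.85e-04) and Ptgs1-4 at least 8.84-fold lower (adjusted p = 0.00511). Ptgs1-5 (chr2:36269442-36276641), which lies 10849 bp beyond the 3′ end of the gene, was at 1 read in each LPS library, against 558.5, 347.9 and 312.3 in untreated cells, at least 98.8-fold lower (adjusted p = 8.15e-05). Ptgs1-1, upstream of the printed start, had 5.903, 21.85 and 76.98 in LPS, against 409.3, 393.3 and 607.5 in untreated cells. Its log2 change of -4.32 (SE 1.37, adjusted p = 0.0265) was lost without any of untreated replicates 1, 2 and 3 (adjusted p = 0.0634, 0.058 and 0.0772) and without LPS replicate 1 (0.113) or 2 (0.0653).

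The IL-10 schedules differed at the 3′ side of Ptgs1. Ptgs1-5 had 1.761, 1.792 and 28.34 with late IL-10, 91.05, 63.51 and 141.9 under continuous IL-10, and 1 read in each LPS library (1.968, 1.680 and 0.464). The continuous IL-10 libraries were all above the LPS and the late IL-10 libraries, and below the untreated ones. Continuous IL-10 was at least 24.0-fold higher than LPS (limma adjusted p = 0.0053), a call that held under all 13 alternatives. Late was lower than continuous IL-10 by a log2 change of -3.96 (SE 0.94, adjusted p = 0.0439). That call was lost with edgeR (adjusted p = 0.0916), without any of the continuous IL-10 replicates 1, 2 and 3 (0.0973, 0.109 and 0.144), and without late IL-10 replicate 1 (0.186) or 2 (0.161).

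The start region of Ptgs1 had 1 read in each late IL-10 library. It had 1.686 and 1.270, 1 read each, in continuous IL-10 replicates 1 and 2, and 94.62 in replicate 3. Over the gene the sums were 12.33, 8.958 and 49.60 with late IL-10 and 113.0, 92.73 and 465.2 with continuous IL-10. The continuous libraries did not overlap with the LPS libraries or with the late ones. Continuous IL-10 against LPS had a log2 change of 2.39 (SE 0.80, adjusted p = 0.106). It was called with the replicate block (adjusted p = 0.00351), with DESeq2 (0.00412), without LPS replicate 3 (log2 change 3.03, adjusted p = 0.023) and without replicate 3 of every group (2.31, adjusted p = 0.011). Late against continuous IL-10 had -3.18 (SE 0.80, adjusted p = 0.0541). It was called with the block (adjusted p = 7.26e-04), with DESeq2 (5.09e-04), with median centring (0.0485), without late IL-10 replicate 3 (-3.89, adjusted p = 0.0137) and without replicate 3 of every group (-3.17, adjusted p = 0.00247). Late IL-10 against LPS had -0.79 (95% interval -2.52 to 0.93, adjusted p = 0.877).

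Ptges, the microsomal prostaglandin E synthase that acts with COX-2, gained H3K27ac over 1 region that spans the whole gene (Ptges-1, chr2:30887469-30936108, 48640 bp). It had 7937, 9206 and 7555 in LPS macrophages, against 219.9, 378.2 and 692.5 in untreated macrophages. The lowest LPS library was far above the highest untreated one, and the spread within LPS was small. The log2 change was 4.41 (SE 0.34, limma adjusted p = 2.98e-06), called under all 15 alternatives. It was 2.38 with every region within 100 kb counted, and 4.00 to 4.88 with libraries left out. With late IL-10 it had 9689, 9998 and 7184, and with continuous IL-10 10830, 10070 and 7562. Both ranges overlapped that of LPS, with log2 changes of 0.11 (95% interval -0.61 to 0.84, adjusted p = 0.986) and 0.19 (-0.53 to 0.92, adjusted p = 0.879), so that changes beyond 1 log2 unit lie outside both intervals. Late against continuous IL-10 gave -0.08 (-0.81 to 0.64, adjusted p = 0.938).

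Hpgds, the hematopoietic synthase of prostaglandin D2, was lower with LPS than untreated and higher with late IL-10 than with LPS, in gene calls that depended on the fit. Its summed signal was 2247, 3411 and 1573 with late IL-10, 1610, 1043 and 926.5 with continuous IL-10, 826.4, 1220 and 460.5 with LPS, and 2115, 2157 and 1347 untreated. The LPS libraries lay below all late IL-10 and all untreated libraries and overlapped with continuous IL-10. LPS against untreated had a log2 change of -1.24 (SE 0.39, limma adjusted p = 0.0303). That call was lost without untreated replicate 1 (adjusted p = 0.106) or 2 (0.102) and without LPS replicate 1 (0.0672) or 3 (0.0793), and with edgeR (0.166), DESeq2 (0.144), median centring (0.141) or overlapping regions alone (0.0817). Late IL-10 against LPS had 1.57 (SE 0.39, adjusted p = 0.044). This one was lost without LPS replicate 1 (adjusted p = 0.11) or 3 (0.0973), without late IL-10 replicate 1 (0.152) or 2 (0.214), with edgeR (0.23), DESeq2 (0.0998), median centring (0.202), no filter (0.0513) or overlapping regions alone (0.269), and was 5.00e-04 with the replicate block.

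One region carried a firmer change. Hpgds-4 (chr6:65158220-65168113), 13239 bp upstream of the gene, had 567.1, 981.8 and 596.1 with late IL-10, 258.0, 288.3 and 310.5 with continuous IL-10, 61.00, 67.22 and 106.7 with LPS, and 352.1, 305.1 and 224.4 untreated. The LPS libraries were below all others, continuous IL-10 overlapped with untreated, and late IL-10 was above every other library. LPS lowered it by a log2 change of -1.91 (SE 0.39, limma adjusted p = 0.0019). Continuous IL-10 was higher than LPS by 1.89 (SE 0.39, adjusted p = 0.0117) and late IL-10 by 3.17 (SE 0.39, adjusted p = 4.71e-04). These 3 calls held under all 13 alternatives. Late against continuous IL-10 gave 1.28 (SE 0.39, adjusted p = 0.0938), with groups that did not overlap.

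Hpgds-4 held 29.7% of the mean signal of the gene with late IL-10, 23.9% with continuous IL-10, 9.37% with LPS and 15.7% in untreated cells. The broad region over the start, Hpgds-3 (chr6:65132770-65157511), held most of the rest, with 1587, 2258 and 918.5 with late IL-10, 1180, 698.6 and 548.0 with continuous IL-10, 661.1, 917.5 and 323.7 with LPS, and 1545, 1496 and 1010 untreated. LPS was below untreated in every library there, without passing the test (log2 change -1.19, SE 0.44, adjusted p = 0.0523). With the replicate block, late IL-10 raised both Hpgds-3 and Hpgds-4 over LPS and over continuous IL-10, and the gene sum of late against continuous IL-10 was called (log2 change 0.98, adjusted p = 0.0128 with the block, 0.203 without; log2 change 1.09, adjusted p = 0.0247 without replicate 3 of every group).

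Hpgds is also a gene of mast cells, which can grow from marrow. Of 8 mast cell markers 3 had a region (Hdc, Cpa3 and Kit), with summed signals of 804.2 to 3029 with late IL-10, 153.8 to 426.6 with continuous IL-10, 779.5 to 2714 with LPS and 43.54 to 169 untreated. In every library given LPS most of this signal was at Hdc. In untreated cells Hdc had 100.4, 1.261 and 17.58, less than Cpa3 in replicates 2 and 3. The other markers, Fcer1a, Ms4a2, Tpsb2, Cma1 and Mrgprb1, had no region. In the groups given LPS the sum is mainly Hdc, so its order between groups is not read as that of mast cells. Cpa3 had 47.55, 50.17 and 36.31 with late IL-10, 30.35, 27.95 and 18.73 with continuous IL-10, 3.935, 1.680 and 0.464 with LPS, and 67.87, 44.12 and 25.54 untreated, so that it was lowest with LPS. Cpa3 fell with LPS (log2 change -4.02, limma adjusted p = 0.00218). It was higher than LPS with late (4.075, adjusted p = 0.00951) and continuous IL-10 (3.28, adjusted p = 0.028). Its 1 region lies 16783 bp outside the gene. Hdc rose with LPS (6.71, adjusted p = 5.3e-04). Kit, under the filter, had means of 4.43 with late IL-10, 8.18 with continuous IL-10, 11.6 with LPS and 0.795 untreated. The part of such cells in the Hpgds result was not tested.

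**Figure D4:**
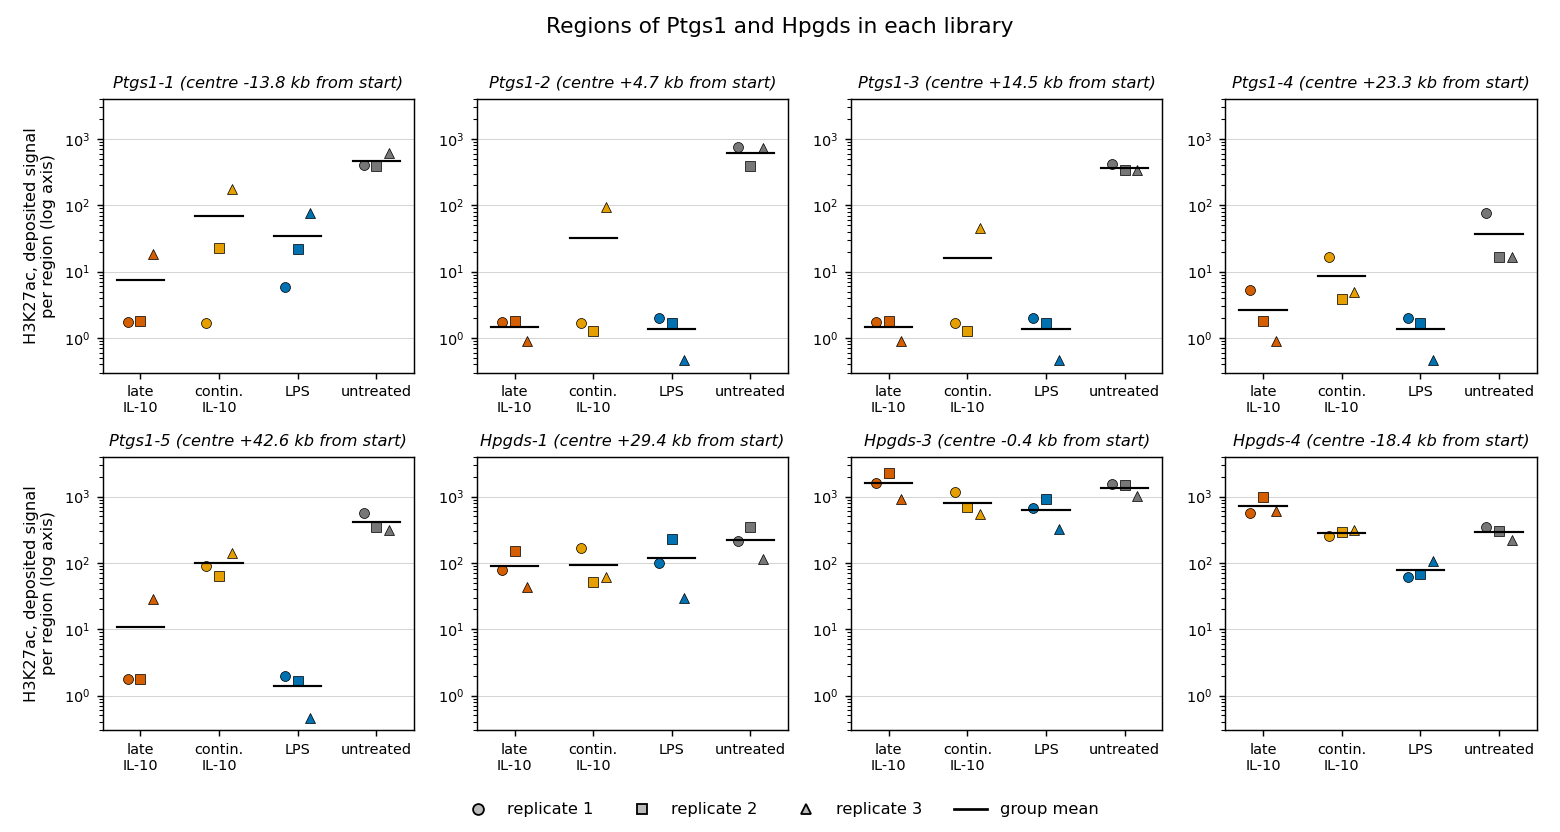
H3K27ac (deposited signal, log axis) of the 5 Ptgs1 regions and of 3 Hpgds regions in each library, with the 3 replicates as symbols and the group mean as a line. Ptgs1-5 is above the LPS level in all 3 continuous IL-10 libraries, and Hpgds-4 is lowest in the LPS libraries and highest in the late IL-10 libraries.

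Ptger4, the EP4 receptor of prostaglandin E2, gained a little H3K27ac with LPS. Its summed signal was 2503, 3517 and 2079 in LPS macrophages, against 1289, 1619 and 1398 in untreated macrophages, without overlap. The log2 change was 0.88 (SE 0.25, limma adjusted p = 0.017). It was lost when either untreated replicate 1 (adjusted p = 0.0687) or LPS replicate 2 (0.0905) was left out, with edgeR (0.0561), with each library centred on its median (0.0978), and with the 1 region that overlaps the gene counted alone (log2 change 0.56, adjusted p = 0.194). Late IL-10 libraries had 2744, 3734 and 2531 and continuous IL-10 libraries 2324, 2877 and 2358. The log2 changes against LPS were 0.17 (95% interval -0.37 to 0.70, adjusted p = 0.953) and -0.07 (-0.61 to 0.46, adjusted p = 0.955).

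The 9 Ptger4 regions did not move together. The region over the start, Ptger4-1 (chr15:5234752-5246307), had 753.6, 1250 and 1251 in LPS, against 629.9, 629.1 and 933.3 in untreated cells, with overlap and no call. Upstream, Ptger4-2 had 381.7, 297.4 and 61.68 in LPS, against 25.45, 1.261 and 7.118 in untreated cells, with a log2 change of 4.62 (SE 0.95, adjusted p = 0.00227). Ptger4-8 rose by 3.02 (adjusted p = 0.0108, and 0.0504 without LPS replicate 2), and Ptger4-9, the highest of the 9 regions after the start region, by 1.05 (adjusted p = 0.0427, with groups that overlapped). The Ptger4-9 call was lost without untreated replicate 1 or 3 (adjusted p = 0.113 and 0.145) and without LPS replicate 1 or 2 (0.094 and 0.193), and with DESeq2 (0.0602).

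In the same interval 2 regions fell. Ptger4-6 (chr15:5301483-5304888, 57296 bp from the gene) was at 1 read in all LPS libraries, against 55.85, 117.2 and 20.10 in untreated cells, at least 15.7-fold lower (limma adjusted p = 0.00267). Ptger4-7 had 7.870, 5.041 and 0.464 in LPS, against 25.45, 31.52 and 16.75 in untreated cells (log2 change -2.54, adjusted p = 0.028). That call was lost without untreated replicate 1 or 2 (adjusted p = 0.0602 and 0.0667), without LPS replicate 2 or 3 (0.0501 and 0.1), without replicate 3 of every group (0.0692), with edgeR (0.0735) and with DESeq2 (0.0725).

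Ptger2, the EP2 receptor, carried much H3K27ac before LPS and showed no called change in any comparison. Its summed signal was 5084, 6567 and 3599 with late IL-10, 5581, 4475 and 4035 with continuous IL-10, 4459, 5157 and 2860 with LPS, and 2973, 3957 and 4269 untreated. All 4 ranges overlapped. The log2 changes were 0.29 (95% interval -0.32 to 0.90) for late IL-10 against LPS, 0.21 (-0.40 to 0.81) for continuous IL-10 against LPS, and 0.13 (-0.48 to 0.74) for LPS against untreated, with limma adjusted p-values of 0.866, 0.835 and 0.793. Changes beyond 1 log2 unit lie outside these intervals. The start region, Ptger2-2 (chr14:44977836-44993955), had 743.8, 1027 and 949.2 in LPS, against 1241, 1682 and 2022 in untreated cells. It was lower by a log2 change of -0.85 (adjusted p = 0.0408), which was lost when untreated replicate 2 or 3 (adjusted p = 0.102 and 0.138), LPS replicate 1 or 2 (0.139 and 0.0581) or replicate 3 of every group (0.0893) was left out, and with median centring (0.183), edgeR (0.0653) and DESeq2 (0.115). The strongest region, Ptger2-5, 29172 bp past the gene, had 3418, 3857 and 1845 in LPS, against 1634, 2204 and 2186 in untreated cells, with overlap.

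Hpgd, the 15-hydroxyprostaglandin dehydrogenase that inactivates prostaglandin E2, had low signal that was lower still after LPS. Its sum was 66.90, 80.66 and 1.855 in LPS macrophages, against 271.5, 342.9 and 187.2 in untreated macrophages. The groups did not overlap, and LPS replicate 3 was far below the other LPS libraries. The log2 change of the sum was -3.37 (SE 1.36, limma adjusted p = 0.0847), which misses the threshold. It passed with the replicate block (adjusted p = 0.00217), with a pseudocount of 10 (-2.63, adjusted p = 0.0369) and without replicate 3 of every group (-2.04, adjusted p = 0.0179).

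Of the 4 Hpgd regions 2 fell. Hpgd-1 (chr8:56283490-56286018, 8534 bp upstream) had 1 read in each LPS library, against 38.18, 45.38 and 60.29 in untreated cells, at least 11.7-fold lower (limma adjusted p = 1.55e-04). Hpgd-4, within the gene, had 9.838, 1.680 and 0.464 in LPS, against 74.23, 103.4 and 43.54 in untreated cells (log2 change -4.34, SE 0.94, adjusted p = 0.00311). Both calls held under all 13 alternatives. The region over the start, Hpgd-2, was under the filter and untested, with 1 read in all 9 libraries given LPS, against 25.45, 1.261 and 25.54 in untreated cells. Hpgd-3, the strongest, had 53.13, 75.62 and 0.464 in LPS, against 133.6, 192.9 and 57.78 in untreated cells, with overlap. IL-10 gave no call. The sums were 79.25, 23.29 and 3.543 with late IL-10 and 45.53, 35.57 and 3.942 with continuous IL-10, with log2 changes against LPS of -0.28 (95% interval -3.22 to 2.66) and -0.30 (-3.24 to 2.64), and adjusted p-values of 0.996 and 0.968.

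Set per kb of region, so that genes can be compared, the order of the 8 genes changed between the groups. With LPS the median signals per kb were 163 for Ptges, 87.0 for Ptger2, 82.4 for Pla2g4a, 76.9 for Ptgs2, 50 for Ptger4, 20.4 for Hpgds, 5.06 for Hpgd and 0.818 for Ptgs1. The lowest Ptges library (155) was above the highest of every other gene, while the ranges of Ptger2, Pla2g4a, Ptgs2 and Ptger4 overlapped. In untreated cells the medians were 77.2 for Ptger2, 57.7 for Ptgs1, 52.2 for Hpgds, 27.9 for Ptger4, 20.5 for Hpgd, 7.78 for Ptges, 5.43 for Pla2g4a and 0.278 for Ptgs2, with overlapping ranges between each pair of neighbours in this order except Hpgds and Ptger4 and except Pla2g4a and Ptgs2. Ptges was the highest with continuous IL-10 (median 207) and with late IL-10 (199), where the range of Pla2g4a (60.1 to 225, median 173) overlapped with it.

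The rest of the pathway was read from 5 gene lists. Of 9 other prostanoid synthases 6 were tested and limma called none in any of the 4 comparisons, with 1 unadjusted p under 0.05, in LPS against untreated. In that comparison DESeq2 called 1 higher, edgeR none, and the replicate block 2 lower. Of 7 other prostanoid receptors 3 were tested, and 2 fell with LPS: Ptger3, the EP3 receptor (log2 change -4.65, SE 1.11, limma adjusted p = 0.00709), and Ptgdr, the DP1 receptor of prostaglandin D2 (-5.14, SE 0.88, adjusted p = 8.41e-04). Ptgdr had 593.5, 881.5 and 239.1 with late IL-10, 730.1, 499.2 and 350.9 with continuous IL-10, 35.42, 5.041 and 0.928 with LPS, and 427.7, 267.3 and 161.2 untreated. All late and all continuous IL-10 libraries were above all LPS libraries. The log2 changes against LPS were 6.06 (SE 0.88, adjusted p = 0.00138) with late and 6.07 (SE 0.88, adjusted p = 0.00178) with continuous IL-10. Both Ptgdr regions lie outside the gene, the main one 13075 bp from it.

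Of 4 genes of prostaglandin transport and breakdown 3 were tested. With LPS Abcc4, an exporter of prostaglandins, rose (log2 change 1.97, SE 0.28, limma adjusted p = 2.27e-04), and Ptgr2, a reductase of prostaglandin metabolites, fell (-2.29, SE 0.35, adjusted p = 4.33e-04). Abcc4 had 7731, 6828 and 4437 with late IL-10, above all its LPS libraries (3418, 3260 and 2285), without a call. Of 12 other phospholipases A2 7 were tested. With LPS Pla2g7 rose (0.55, adjusted p = 0.0362), and Pla2g15 (-1.62, adjusted p = 0.00227) and Pla2g4e (-1.72, adjusted p = 3.72e-04) fell. Pla2g15, a lysosomal enzyme, was higher than LPS with late IL-10 (1.28, adjusted p = 0.0451) and continuous IL-10 (1.51, adjusted p = 0.0164), and Pla2g4c was lower with continuous IL-10 (-4.45, adjusted p = 0.0466). Pla2g4c had 79.25, 2.54 and 1.971 with continuous IL-10, against 373.8, 347.9 and 66.78 with LPS, so the groups overlapped. Continuous IL-10 replicates 2 and 3 were at 1 read per region, so this change cannot be sized. A region of Pla2g7 and one of Pla2g4e are shared with a neighbouring gene.

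All 10 genes of the leukotriene and lipoxygenase list, the other main use of arachidonic acid, were tested, and with LPS 7 fell and 1 rose. Over all genes tested 13.3% fell and 14.2% rose. The 4 with the largest changes were Ltb4r1 (log2 change -5.65, limma adjusted p = 0.00403) and Ltb4r2 (-4.90, adjusted p = 0.00326), receptors of leukotriene B4 that share a region, Ltc4s, the leukotriene C4 synthase (-5.08, adjusted p = 0.0202), and Alox5, the 5-lipoxygenase (-4.41, adjusted p = 0.00744). With LPS Ltb4r1 had 1.968, 1.68 and 195.7, against 441.1, 567.3 and 792.2 untreated. Ltc4s had 7.87, 1.68 and 179.9, against 625.6, 456.3 and 584.5, and Alox5 5.903, 5.041 and 44.05, against 222, 187.8 and 426.2. LPS replicates 1 and 2 were at or near the floor of 1 read per region, so these log2 changes cannot be sized. The shared region, which also overlaps Adcy4, is the only one of Ltb4r1 (mean 413.2). The other Ltb4r2 regions had means of 4.4 and 5.6, so both genes gave nearly the same measurement in every comparison. Alox12, a platelet-type lipoxygenase and the 1 gene that rose with LPS (3.27, adjusted p = 0.00752; named after its value was seen), was lower with continuous IL-10 than with LPS (-5.15, adjusted p = 0.00276). Ltb4r1 and Ltb4r2 were higher than LPS with late IL-10 (5.01 and 4.23, adjusted p = 0.0397 and 0.0379) and with continuous IL-10 (5.53 and 4.76, adjusted p = 0.0198 and 0.0174). Ltb4r1 had 401.5, 207.8 and 622.7 with late IL-10 and 404.7, 420.4 and 901.8 with continuous IL-10. Its lowest late IL-10 library was thus close to LPS replicate 3. With edgeR no gene of this list was higher than LPS with late or continuous IL-10. The median log2 change with LPS was -2.19 over the list and -0.11 over all genes tested.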

How the data were processed

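H3K27ac ChIP-seq libraries of 12 samples (3 per group) were used, and the input library was not. The deposited signal is a normalised value per consensus region, with regions on mm10, per the file headers and labels. Trim Galore, Bowtie2, MACS2 and DiffBind are named in the submitters' processing notes, without versions or roles. Within a library the values the authors deposited are whole multiples of its lowest value (100% within 1e-04), taken as 1 read. No source used here says whether input reads were subtracted or low values raised to 1 read. No genome was used, and gene positions and promoters came from RefSeq tables on GRCm38.p6.

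Values were summed per protein-coding gene, and log2(signal + 1) was fitted in limma 3.58.1 (R 4.3.3; mean-variance trend, robust) over the 12 libraries with group as the only term. Because the files hold a normalised signal and not counts, limma is the main test. The lowest 10 percent of features by mean log2 value were left out (36621 regions and 13482 genes stayed), and p-values were adjusted by Benjamini-Hochberg within each of the 4 comparisons, with calls at an adjusted p under 0.05. With 3 libraries against 3, an exact permutation test of single values cannot go below 0.1, so none was used. The p-values measure the spread between 3 pools of macrophages. The fitting code was tested on simulated data.

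Alternatives were a pseudocount of 10, no filter, a replicate block, median centring, edgeR 4.0.16 (quasi-likelihood, TMM) and DESeq2 1.42.0 on the recovered reads, leaving out each library, other region rules and, added after the values were seen, leaving out replicate 3 of every group. The replicate numbers were taken to pair the libraries, although the sample titles give a number and name no pool. The labels describe 3 pools, and deviations of same-numbered libraries correlated at 0.149 to 0.712 in all 12 pairs of compared groups. Libraries of different number reached 0.37, and 11 of 12 libraries correlated best on average with their own number. Named items are all 8 genes, their regions that were called, cover a start or are strongest, and up to 4 called genes of each other list. The members and all lists were chosen with earlier results of these data known.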

Additional observations from a re-analysis of the deposited data

How the results depend on the processing

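Of the 7 gene calls 4 held under every alternative (Ptgs2, Ptgs1, Ptges and Pla2g4a with LPS), as did 19 of the 27 region calls. The counts of members called moved most. Genes lower with LPS (2) became 3 with a pseudocount of 10, with the replicate block and without replicate 3 of every group, 1 with median centring, edgeR, DESeq2 and regions overlapping the gene alone, and 1 to 2 with single libraries left out. Genes higher with continuous IL-10 than LPS (0) became 1 with the replicate block, DESeq2 and without replicate 3 of every group, and 0 to 1 with single libraries left out. Genes higher with late IL-10 than LPS (1) became 2 with the block and without replicate 3 of every group, 0 without the filter, with median centring, edgeR, DESeq2 and overlapping regions alone, and 0 to 1 with single libraries left out. For late against continuous IL-10, genes higher (0) became 1 with the block and 2 without replicate 3 of every group, and genes lower (0) became 1 with the block, median centring, DESeq2 and without replicate 3 of every group, and 0 to 1 with single libraries left out.

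Regions higher with LPS (12) became 20 with the block, 19 with edgeR, 20 with DESeq2, 22 without replicate 3 of every group and 8 to 23 with single libraries left out. With overlapping regions alone, 5 regions were higher and 6 lower with LPS, and 0 were called in the comparisons with IL-10. Regions higher with continuous IL-10 than LPS (2) became 5 with the block and 4 with DESeq2, and lower (0) became 1 without replicate 3 of every group. Regions higher with late IL-10 than LPS (1) became 5 with the block and 3 without replicate 3 of every group. For late against continuous IL-10, regions higher (0) became 2 with the block, 1 with DESeq2 and 3 without replicate 3 of every group, and regions lower (1) became 0 with edgeR, 2 with DESeq2 and 0 to 1 with single libraries left out. The block changed no other gene call than those named above and in the text. The cause was not tested.

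Signs turned only at uncalled genes. For LPS against untreated, Ptger2 had -0.61 with overlapping regions alone and -0.05 to 0.38 with single libraries left out. For continuous IL-10 against LPS, Ptgs2 had -0.02 with edgeR, -0.03 with DESeq2 and -0.01 without replicate 3 of every group, and Ptger4 had 0.10 with overlapping regions alone and 0.08 with every region within 100 kb. With single libraries left out the ranges were -0.56 to 1.10 (Ptgs2), -0.19 to 1.39 (Pla2g4a), -0.04 to 0.38 (Ptger2), -0.24 to 0.14 (Ptger4) and -1.87 to 0.72 (Hpgd). For late IL-10 against LPS, Ptgs1 had 0.22 with every region within 100 kb, and the ranges were -0.37 to 1.38 (Ptgs2), 0.00 to 0.38 (Ptger4) and -1.85 to 0.81 (Hpgd). For late against continuous IL-10, Ptges had 0.02 with DESeq2, and the ranges were -0.36 to 0.87 (Ptgs2), -0.24 to 0.07 (Ptges), -0.12 to 0.31 (Ptger2) and -1 to 1.12 (Hpgd).

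Depth limits regions near 1 read, where a change in either direction cannot be sized, and with 3 libraries a group the intervals of Ptgs2, Ptgs1, Pla2g4a and Hpgd span more than 1 log2 unit on each side of their estimates. The median gene changed by -0.11 with LPS, and by -0.16 with late IL-10 against LPS and -0.12 against continuous IL-10.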
